A study of Mus musculus with 6 samples.

Results

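The genes of cholesterol supply and disposal were followed in stromal cells grown from mouse bone marrow (BMSCs), precursors of both bone-forming osteoblasts and adipocytes. A list of 33 genes covers 3 arms: 19 genes that build cholesterol from acetyl-CoA units through mevalonate, 6 genes that control SREBP transcription factors or carry sterol inside the cell, and 8 genes of the oxysterol receptor LXR and of cholesterol efflux. The genes were listed by their known roles, and 30 of the 33 were measured, among 19938 genes tested in all. The 3 without a named probe set here were Acat2, Nr1h2 and Soat1, which were not analysed. Expression was read on 1 array per RNA sample in 3 samples from mice lacking miR-188 (KO188) and 3 samples from wild-type mice (WT). Both groups were on the C57BL/6 background, 6 months old, and both were grown in osteogenic medium with 10% serum, 0.05 mM ascorbate-2-phosphate, 10 mM beta-glycerophosphate and 100 nM dexamethasone. The bases removed and whether the knockout was limited to some cells were not given in the sources used here.

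The miR-188 locus lies on the X chromosome and encodes 2 mature microRNAs, shown here because KO188 is named after them (RefSeq, GRCm38.p6, minus strand, chrX:7248031-7248051 and chrX:7247992-7248012). Their loss was not measured on these arrays. Capitals mark the seed, bases 2 to 8, with which a microRNA pairs to its targets.
mmu-miR-188-5p: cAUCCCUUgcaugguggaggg
mmu-miR-188-3p: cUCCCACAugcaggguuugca

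Cells sense cholesterol in the membrane of the endoplasmic reticulum. When sterol is scarce, the escort protein SCAP carries SREBP2 to the Golgi, where it is cut and freed to switch on the genes of sterol synthesis and uptake, and when sterol is plentiful INSIG proteins hold SCAP back. Excess cholesterol is oxidised to oxysterols, which activate LXR and so raise the genes of cholesterol export. The SREBP and LXR programmes therefore usually move in opposite directions, and growing cells depend on the first of them for new membrane.

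All values are log2 levels as deposited, and a change is KO188 minus WT. A gene passed when its limma p, adjusted over all tested genes, lay under 0.05. Array medians ran from 7.46 to 7.50 in KO188 and from 7.43 to 7.44 in WT. Arrays of 1 group correlated at 0.9988 or more across genes, and arrays of different groups at 0.9912 or less. The labels do not say whether each sample came from its own mouse or culture, so the p-values measure only the spread between these samples, and their number limits the precision. No batch is named, and a culture difference shared by all KO188 samples cannot be told apart from genotype. The probe set of Mir188 read 7.03, 7.13 and 7.09 in KO188 and 7.15, 7.13 and 7.16 in WT. Its change of -0.06 did not pass (adjusted p = 0.24), though it did with each array centred on its median (-0.11, adjusted p = 0.040), and it does not check the labels, since which part of the locus it reads is unknown. All 12 stromal markers lay above 6.72, a rough guide to genes that are not expressed, set at the 95th percentile of 1194 genes of smell and pheromone receptors. They ran from Thy1 (6.79 in KO188, 6.88 in WT) to Col1a1 (13.11 in KO188, 12.90 in WT). Of these 12, 8 rose, such as Pdgfra (0.87), and 2 fell, Nt5e (-0.85) and Cd44 (-0.33), beside 13.3% higher and 16.5% lower over all tested genes. Of 8 osteoblast markers measured, 4 lay above the guide, by the mean over all 6 arrays. Ibsp and Dmp1, markers of mature bone cells, lay below it in both groups. All 30 measured sterol genes lay above it. In samples of whole cultures, fewer cells of a type and less RNA per cell cannot be told apart.

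Sterol synthesis genes were lower in KO188 along nearly the whole pathway. Of 18 measured, 16 fell, 0 rose and 2 did not pass, and the changes ran from -1.25 to 0.00, -0.69 at the median. Over all tested genes 29.8% passed, 16.5% lower and 13.3% higher, and the median change was -0.01. All 3 KO188 arrays lay below all 3 WT arrays for 17 of the 18, whereas the groups did not overlap for 41.5% of all genes in either direction. The median within-group SD of the 18 genes was 0.065 in KO188 and 0.029 in WT, so most changes were many times the spread between arrays.

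**Figure D1:**
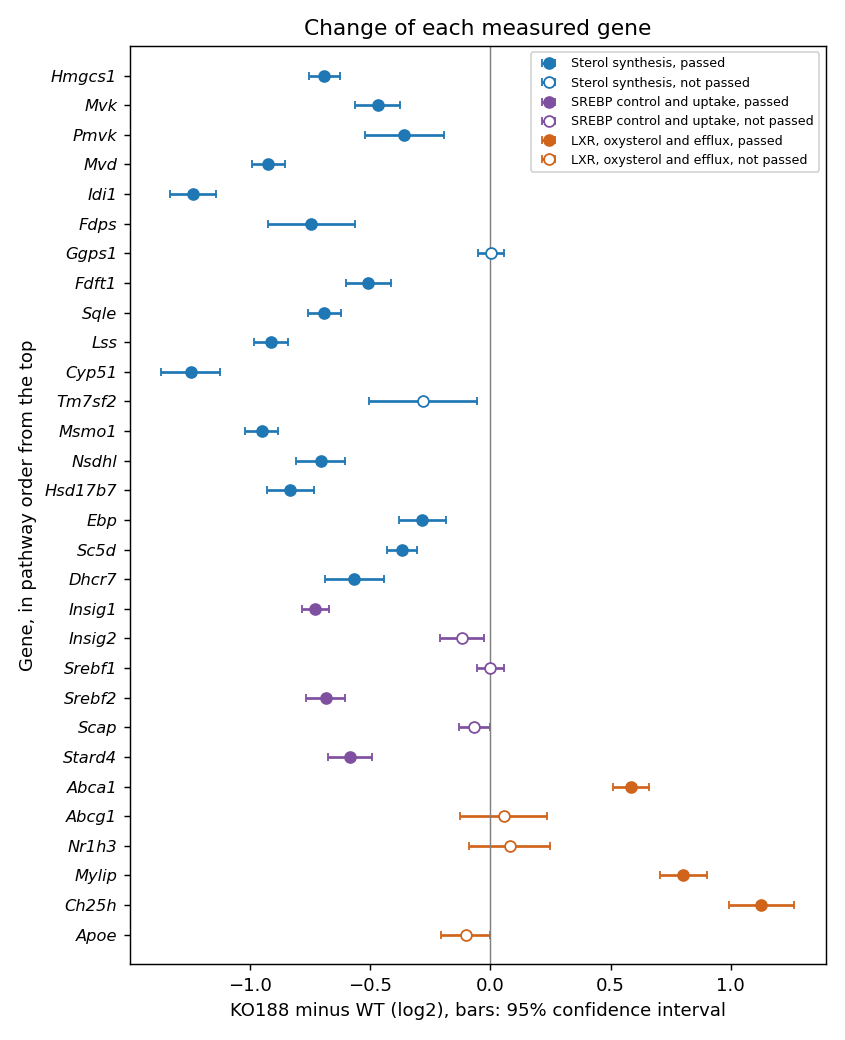
Change of each of the 30 measured genes, KO188 minus WT on the log2 scale, in pathway order from top to bottom. Points are limma estimates from 3 KO188 and 3 WT arrays, bars are 95% confidence intervals, and filled points passed the test. The synthesis genes sit left of 0 from Hmgcs1 (-0.69) to Dhcr7 (-0.57) except Ggps1 (0.00), while Abca1, Mylip and Ch25h lie to the right (0.58 to 1.13).

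The first steps, from HMG-CoA to farnesyl diphosphate, fell in all 6 measured genes (changes from -1.24 to -0.36, median -0.72). Hmgcs1, which encodes the synthase that makes HMG-CoA, read 10.86, 10.86 and 10.83 in KO188, against 11.51, 11.56 and 11.57 in WT. The groups were clearly apart, with a change of -0.69 (SE 0.027, adjusted p = 8.3e-06), or 1.61-fold lower. Mvk, the mevalonate kinase gene, read 10.20, 10.15 and 10.07 in KO188 and 10.62, 10.58 and 10.63 in WT, and fell by 0.47 (adjusted p = 0.00022). Pmvk, which adds the next phosphate, fell by 0.36 (SE 0.068, adjusted p = 0.0077) and had the widest KO188 spread of the 18 (SD 0.102). Mvd, the decarboxylase gene that makes the isoprene unit, read 9.65, 9.65 and 9.61 in KO188, against 10.58, 10.53 and 10.57 in WT. Its change of -0.92 (SE 0.028, adjusted p = 2.7e-06) was 1.90-fold, and by p it stood at place 144 of all tested genes.

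Idi1, which encodes the isomerase that readies isoprene units for joining, had levels of 10.51, 10.44 and 10.38 in KO188 and of 11.71, 11.67 and 11.65 in WT. It was 2.36-fold lower (change -1.24, SE 0.040, adjusted p = 3.4e-06), and its other probe set gave -1.27. Fdps, the farnesyl diphosphate synthase gene, read 11.32, 11.44 and 11.29 in KO188, against 11.99, 12.05 and 12.25 in WT. It fell by 0.74, with the largest standard error among these steps (0.075, adjusted p = 0.00053). Farnesyl diphosphate is the branch point: it either enters sterol synthesis or is lengthened by the product of Ggps1 for the prenylation of proteins. Ggps1 read from 10.052 to 10.055 in KO188 and from 10.047 to 10.055 in WT and did not pass (change 0.00, 95% interval -0.05 to 0.06). For Ggps1, 4 of the 6 deposited values were identical to the last digit, across both groups. Of all tested genes, 25.3% had a value shared exactly by a KO188 and a WT array.

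The committed steps to the first sterol, lanosterol, fell in all 3 genes. Fdft1, which encodes squalene synthase, read 12.10, 12.06 and 12.11 in KO188 and 12.67, 12.57 and 12.55 in WT. Its change was -0.51 (adjusted p = 0.00016), and its other probe set gave -0.49. Sqle, the squalene epoxidase gene and a control point of the pathway, read 11.52, 11.52 and 11.55 in KO188, against 12.25, 12.23 and 12.19 in WT. It fell by 0.69 (SE 0.029, adjusted p = 1.1e-05). Lss, the gene of the cyclase that closes the sterol rings, had levels of 9.91, 9.95 and 9.90 in KO188 and of 10.86, 10.80 and 10.84 in WT, and was 1.88-fold lower (change -0.91, adjusted p = 3.7e-06).

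From lanosterol to cholesterol 7 of 8 genes fell, and the changes ran from -1.25 to -0.28, -0.64 at the median. Cyp51, which encodes the demethylase that acts first on lanosterol, read 10.64, 10.44 and 10.56 in KO188, against 11.78, 11.79 and 11.81 in WT. This was the deepest fall of the 30 genes, at 2.37-fold (change -1.25, SE 0.050, adjusted p = 9.5e-06). Msmo1, the gene of the methylsterol oxidase, read 11.34, 11.31 and 11.28 in KO188 and 12.23, 12.27 and 12.28 in WT, a change of -0.95 (adjusted p = 2.4e-06, place 142 by p). The enzymes that work with it to remove methyl groups at carbon 4 also fell: Nsdhl by 0.71 (adjusted p = 5.4e-05) and Hsd17b7 by 0.83 (adjusted p = 2.3e-05).

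The remaining genes from lanosterol to cholesterol act on double bonds of the sterol. Ebp, the sterol isomerase gene, read 9.97, 9.83 and 9.89 in KO188, against 10.17, 10.20 and 10.17 in WT, a fall of 0.28 that left a narrow gap between the groups (adjusted p = 0.0024). Sc5d, the desaturase gene, fell by 0.37 (adjusted p = 0.00010) and Dhcr7, which completes cholesterol, fell by 0.57 (adjusted p = 0.00033). No test was made of the difference between early and late steps. Tm7sf2, a sterol reductase gene whose work is shared with another enzyme, read 7.26, 7.38 and 7.25 in KO188 and 7.45, 7.49 and 7.79 in WT. The groups did not overlap, but WT replicate 3 stood above the other WT arrays and the change of -0.28 did not pass (SE 0.093, adjusted p = 0.067). It passed in 4 of the 13 alternative fits that held it, among them each array centred on its median (-0.33, adjusted p = 0.022). The others were quantile normalization, a trended, robust variance model and genes with tied values left out.

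**Figure D2:**
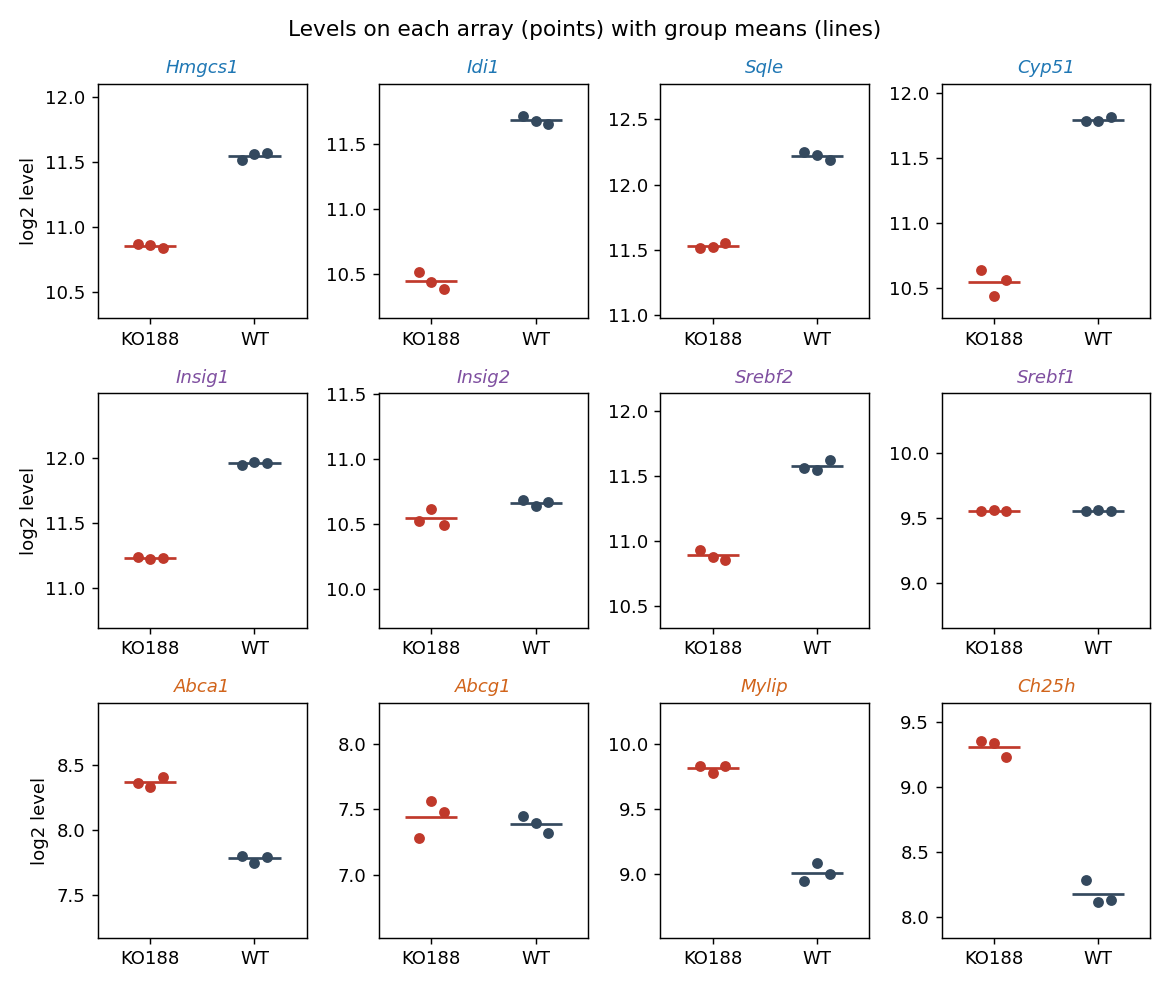
Log2 level of 12 genes on each array, KO188 left and WT right, with 3 arrays a group; points are arrays, lines are group means, and every panel spans the same range of log2 units around its own centre. The groups stand apart for Hmgcs1, Idi1, Sqle, Cyp51, Insig1 and Srebf2 (KO188 lower) and for Abca1, Mylip and Ch25h (KO188 higher), and overlap for Srebf1 and Abcg1.

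Among the control genes Insig1, Srebf2 and Stard4 were lower in KO188, while Insig2, Srebf1 and Scap did not pass. Of the 6 genes 3 fell, 0 rose and 3 did not pass, with a median of -0.35, beside 16.5% of all tested genes called lower. Insig1, which encodes the sterol-responsive retention protein, read 11.24, 11.23 and 11.24 in KO188, against 11.95, 11.97 and 11.97 in WT. Its arrays were tight within each group (SD 0.007 in KO188 and 0.011 in WT), and it fell by 0.73 (SE 0.023, adjusted p = 3.4e-06). Insig2, its paralogue, which is known to respond to other signals than SREBP2, read 10.52, 10.61 and 10.49 in KO188 and 10.68, 10.64 and 10.67 in WT. The groups did not overlap, with KO188 replicate 2 closest to WT, and the change of -0.12 did not pass (adjusted p = 0.058), though it did without that array (-0.15, adjusted p = 0.016). The gap between the paralogues, Insig1 minus Insig2, was 0.69 ± 0.07 in KO188 and 1.30 ± 0.03 in WT (SD, n = 3 each), a difference of -0.61 (exact permutation test, two-sided, p = 0.10, which is the lowest value possible with 3 arrays a group).

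Srebf2, the gene of SREBP2, read 10.93, 10.88 and 10.86 in KO188, against 11.56, 11.54 and 11.62 in WT, and fell 1.61-fold (change -0.69, SE 0.034, adjusted p = 2.3e-05). Srebf1, whose protein mainly serves fatty acid synthesis, read 9.56 on every array after rounding (change 0.00, 95% interval -0.05 to 0.05). As with Ggps1, 4 of its 6 values were identical to the last digit across both groups. The value of Srebf1 minus Srebf2, -1.33 ± 0.04 in KO188 and -2.02 ± 0.04 in WT, holds the tied Srebf1 values (exact permutation p = 0.10). Scap read 10.93 ± 0.02 in KO188 and 10.99 ± 0.02 in WT (SD, n = 3 each), a change of -0.07 that did not pass (adjusted p = 0.12). Stard4, which encodes a carrier that moves cholesterol between membranes, read 9.36, 9.26 and 9.24 in KO188, against 9.84, 9.90 and 9.87 in WT, and fell by 0.58 (adjusted p = 7.4e-05). The count of this arm depended on the scaling: with each array centred on its median 5 of 6 were called lower, Insig2 (-0.16, adjusted p = 0.0097) and Scap (-0.11, adjusted p = 0.025) among them. Leaving out the genes with tied values moved the median to -0.58.

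Abca1, Mylip and Ch25h of the LXR and efflux arm were higher in KO188. Of 6 genes measured, 3 rose, 0 fell and 3 did not pass, with a median of 0.33, beside 13.3% of all tested genes called higher. Abca1, which encodes the pump that loads cholesterol onto apolipoprotein A1, read 8.36, 8.33 and 8.40 in KO188, against 7.80, 7.75 and 7.79 in WT. It rose 1.50-fold (change 0.58, SE 0.031, adjusted p = 3.3e-05). Abcg1, the partner pump that exports cholesterol to formed particles, read 7.28, 7.56 and 7.48 in KO188 and 7.45, 7.39 and 7.32 in WT. Its groups overlapped and the change of 0.06 did not pass (95% interval -0.13 to 0.24, adjusted p = 0.65). Abca1 minus Abcg1 was 0.92 ± 0.15 in KO188 and 0.39 ± 0.07 in WT, a difference of 0.53 (two-sided exact permutation p = 0.10; adjusted over the 3 pairs compared, 0.10 for each).

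Mylip, which encodes the LXR-induced ubiquitin ligase that marks lipoprotein receptors for breakdown, read 9.83, 9.78 and 9.83 in KO188, against 8.94, 9.08 and 8.99 in WT. All KO188 arrays were higher, by 0.80 on average (SE 0.041, 1.75-fold, adjusted p = 2.9e-05). Ch25h makes 25-hydroxycholesterol, an oxysterol that binds INSIG proteins and activates LXR, and the gene is also known as interferon-induced in macrophages. It read 9.35, 9.34 and 9.23 in KO188 and 8.28, 8.12 and 8.14 in WT, the largest rise of the 30 genes at 2.18-fold (change 1.13, SE 0.056, adjusted p = 2.4e-05). Nr1h3, the gene of LXR alpha, read 7.06, 7.12 and 7.16 in KO188 and 6.96, 6.95 and 7.19 in WT. It overlapped through WT replicate 3 and did not pass (0.08, adjusted p = 0.47), but did without that array (0.16, adjusted p = 0.034). Apoe, the apolipoprotein gene and a known LXR target in macrophages, read 8.64, 8.59 and 8.53 in KO188 and 8.67, 8.65 and 8.75 in WT. The difference of -0.10 did not pass (adjusted p = 0.13), yet it did, as the only lower call of the arm, with median centring (-0.15, adjusted p = 0.041), with quantile normalization (-0.16, adjusted p = 0.016) and with genes below the 50th percentile left out (adjusted p = 0.048). With those dimmer genes left out the median of the arm was 0.69.

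Macrophages make much Abca1, Apoe and Ch25h, so their markers were read beside this arm. All marker counts here stand beside 16.5% of all tested genes called lower and 13.3% called higher. Of 12 macrophage markers 1 rose, Mpeg1, at 7.04 ± 0.07 in KO188 and 5.72 ± 0.23 in WT (SD, n = 3 each), and 0 fell, and the mean level of the list was 6.57 to 6.65 in KO188 arrays and 6.52 to 6.53 in WT arrays. The defining markers Ptprc, Itgam, Adgre1 and Csf1r lay below the receptor guide of 6.72 in both groups, while Cd68 (8.54 in KO188, 8.39 in WT), Cd14 (7.58 in KO188, 7.85 in WT) and Fcgr1 (7.28 in KO188, 7.25 in WT) lay above it and did not pass. Of 9 adipocyte markers, 2 fell, Pparg (-1.86) and Fabp4 (-0.33), and 1 rose, Lpl (0.54), and the mean of the list was 7.06 to 7.20 in KO188 and 7.24 to 7.28 in WT. Adipoq, made only by fat cells, lay below the guide in both groups (5.36 in KO188, 5.37 in WT), but 7 of the 9 lay above it, among them the lipid droplet genes Plin1 (7.75 in both groups) and Cidec (7.38 in both groups). Of 6 endothelial markers 1 was called higher, Kdr, at 6.63 in KO188 and 6.40 in WT, below the guide in both. That call ended with the replicate block (adjusted p = 0.058) and with any of 4 arrays left out (adjusted p from 0.051 to 0.079). Of 8 osteoblast markers 5 rose, led by Alpl (2.08), Omd (1.60) and Dlx5 (0.74), and 1 fell, Phex (-0.16). Sp7, 1 of the 5, and Phex lay below the guide by the mean over all 6 arrays. The Phex call ended when KO188 replicate 1 or 3 or WT replicate 1 or 2 was left out. The mean centred level of the osteoblast list was 0.30 to 0.35 in KO188 arrays and -0.34 to -0.31 in WT arrays. This difference of 0.65 had the opposite sign to that of the synthesis arm, -0.65. Proliferation genes fell in 10 of 11, with a median of -0.23, and their mean centred level was -0.15 to -0.13 in KO188 arrays and 0.13 to 0.15 in WT arrays. The part of Mpeg1-expressing cells, of fat cells, of osteoblast maturation or of cell division in the sterol changes was not tested.

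**Figure D3:**
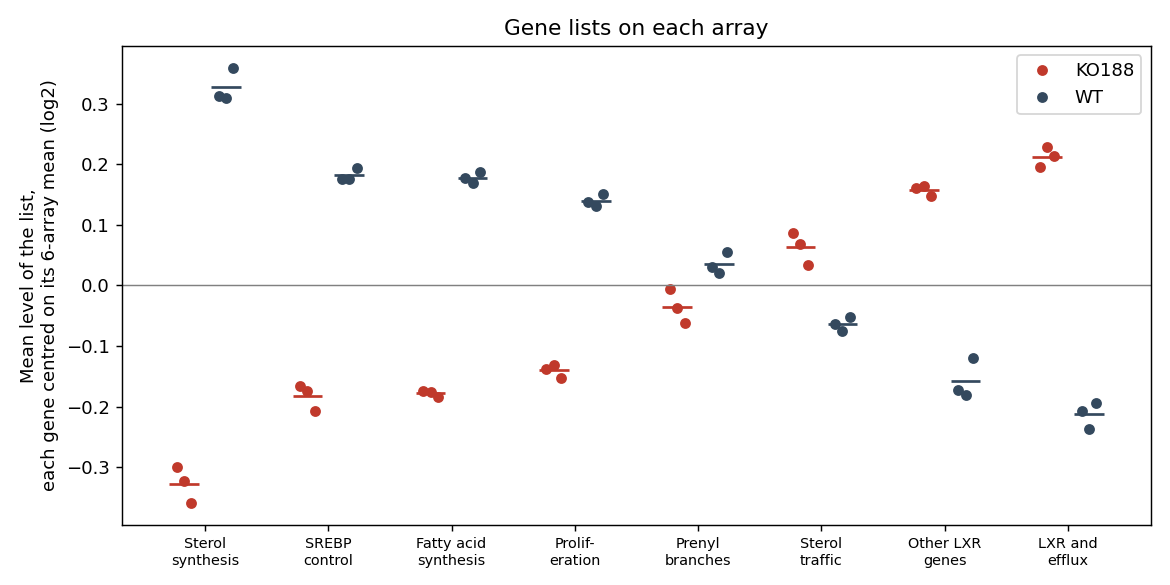
Mean level of 8 gene lists on each array after centring every gene on its 6-array mean (log2), KO188 left and WT right within each list; points are arrays and lines are group means of 3. Sterol synthesis shows the widest gap, from -0.36 to -0.30 in KO188 arrays against 0.31 to 0.36 in WT arrays, and the LXR and efflux list the opposite one, 0.20 to 0.23 against -0.24 to -0.19. The mean of the other LXR genes includes Apod (change 3.23), while the median change of its 12 genes was 0.05.

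On single arrays, the centred synthesis arm averaged -0.30, -0.32 and -0.36 in KO188 and 0.31, 0.31 and 0.36 in WT. That of the SREBP control arm was -0.17, -0.17 and -0.21 in KO188 and 0.18, 0.18 and 0.19 in WT. The LXR and efflux arm gave 0.20, 0.23 and 0.21 in KO188 and -0.21, -0.24 and -0.19 in WT. No array of either group stood near the other group in any arm. These means describe chosen genes and carry no test.

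The upstream sequences of the synthesis genes were searched for 4 motifs on both strands, since these genes moved together. RefSeq promoters (GRCm38.p6, from 250 bases before to 50 after the annotated start) were held for 25 of the 30 genes, 15 of them synthesis genes. CCAAT, the motif of NF-Y, a factor that works beside SREBP at many sterol promoters, was in 15 of 15 synthesis promoters, against 41.7% of the 15614 tested genes with a promoter. The 15 include Ggps1 and Tm7sf2, which did not pass, so the motif does not separate those that fell from those that did not. It was in 4 of 5 promoters of the SREBP control arm and in 1 of 5 of the LXR arm, that of Mylip. Some genes have several start sites; over genes with 1 window the counts were 13 of 13 synthesis genes and 38.7% of tested genes. GGGCGG, bound by Sp1, was in 13 of 15 synthesis promoters, against 52.9% of tested genes. TCACNCCAC, a core of the sterol regulatory element, was found in 1 of 15, Hmgcs1, and in 1.4% of tested genes. With at most 1 of its 8 fixed letters changed it was in 6 of 15, against 27.6%. That looser core was also in 3 of 5 promoters of the SREBP control arm and in 3 of 5 of the LXR arm, so it does not set the synthesis genes apart. An LXR element, AGGTCA repeated in the same orientation after 4 bases, was in 0 of 25 and in 1 of the 15614. A match is a description and not a bound site, and no match says only that these letters are not in this window.

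The Hmgcs1 and Srebf2 stretches are shown whole because Hmgcs1 holds the exact core and Srebf2 encodes the factor that binds it. They run over the 250 bases before the start, on the plus strand, chr13:119690101-119690350 for Hmgcs1 and chr15:82147019-82147268 for Srebf2. Capitals mark CCAAT, which reads in reverse complement as ATTGG where it lies on the other strand, and the core, which is exact in Hmgcs1, 137 to 129 bases before the start, and has 1 changed letter in Srebf2, 162 to 154 bases before it.
Hmgcs1: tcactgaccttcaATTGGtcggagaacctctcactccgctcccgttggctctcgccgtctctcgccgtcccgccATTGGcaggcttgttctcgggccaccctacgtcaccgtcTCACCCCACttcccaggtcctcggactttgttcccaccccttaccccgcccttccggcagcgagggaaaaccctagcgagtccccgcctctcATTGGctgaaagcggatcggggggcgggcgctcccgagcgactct
Srebf2: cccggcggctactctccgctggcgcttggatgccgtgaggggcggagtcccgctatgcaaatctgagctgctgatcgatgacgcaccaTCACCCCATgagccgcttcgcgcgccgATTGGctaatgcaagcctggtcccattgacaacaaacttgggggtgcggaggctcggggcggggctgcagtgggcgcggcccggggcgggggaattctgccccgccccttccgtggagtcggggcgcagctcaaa

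Shorter stretches are shown for the 5 synthesis genes that fell most, for Hsd17b7 with a core near CCAAT and for Mylip, the LXR arm's gene with CCAAT. Capitals again mark CCAAT on either strand and, in Cyp51, Msmo1, Hsd17b7 and Mylip, a core with 1 changed letter. Where both motifs are marked, only pairs that did not overlap were considered. The regions, 5′ to 3′ on the strand of each gene, are chr5:4104714-4104813 (minus) for Cyp51, chr13:8885584-8885604 (plus) for Idi1, chr8:64733726-64733763 (minus) for Msmo1, chr8:122443437-122443457 (minus) for Mvd, chr10:76531535-76531555 (plus) for Lss, chr1:169969266-169969310 (minus) for Hsd17b7 and chr13:45389606-45389646 (plus) for Mylip.
Cyp51: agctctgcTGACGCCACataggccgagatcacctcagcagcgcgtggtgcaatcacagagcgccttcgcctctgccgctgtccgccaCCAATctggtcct
Idi1: aaggtgccATTGGctggcgac
Msmo1: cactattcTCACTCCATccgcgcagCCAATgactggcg
Mvd: ccagcgggCCAATcatatggc
Lss: atgctctgATTGGccgagctc
Hsd17b7: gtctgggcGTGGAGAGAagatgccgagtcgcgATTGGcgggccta
Mylip: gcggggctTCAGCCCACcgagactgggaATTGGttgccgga

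Neighbouring lipid genes were read from 6 further lists, whose counts stand beside 29.8% of all tested genes called, 16.5% lower and 13.3% higher. Fatty acid synthesis genes, which SREBP1 and SREBP2 are known to drive, fell in 14 of 17 measured genes and rose in 1, Gpam (0.17), with a median of -0.40. The Gpam call ended without WT replicate 1 (0.15, adjusted p = 0.0500). Fasn, the fatty acid synthase gene, fell by 0.71, Acaca, which makes malonyl-CoA, by 0.59, and Elovl5, an elongase gene, by 0.55. Genes of the prenyl branches that leave the mevalonate pathway were mixed: 6 of 14 fell, 2 rose, and the median was -0.07. Fnta, the shared alpha subunit of the protein prenyltransferases, fell by 0.35 and Nus1, needed for dolichol, by 0.19, while Pggt1b, the subunit that sets geranylgeranyl transfer, rose by 0.19. The sterol steps beyond the branch thus read -0.69 at the median and the other outlets of the pathway -0.07; the difference was not tested.

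Genes that process SREBP or break down its partners fell in 4 of 11 and rose in 3, with a median of -0.03. Rnf145, a ubiquitin ligase gene of the sterol-sensing machinery, fell by 0.36, whereas Rnf139, another such ligase, rose by 0.46. Tmem97, which encodes a sterol-regulated membrane protein, fell by 0.27. Sterol traffic genes rose in 9 of 19 and fell in 5, with a median of 0.16. Stard3, a carrier gene of late endosomes, read 10.57, 10.57 and 10.52 in KO188, against 9.85, 9.81 and 9.84 in WT, and rose by 0.72. Npc2, the soluble lysosomal cholesterol carrier, rose by 0.57. Lrp8, a lipoprotein receptor gene, read 10.26, 10.12 and 10.10 in KO188 and 10.96, 11.00 and 11.03 in WT, and fell by 0.84, the deepest fall of the 6 lists.

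**Figure D4:**
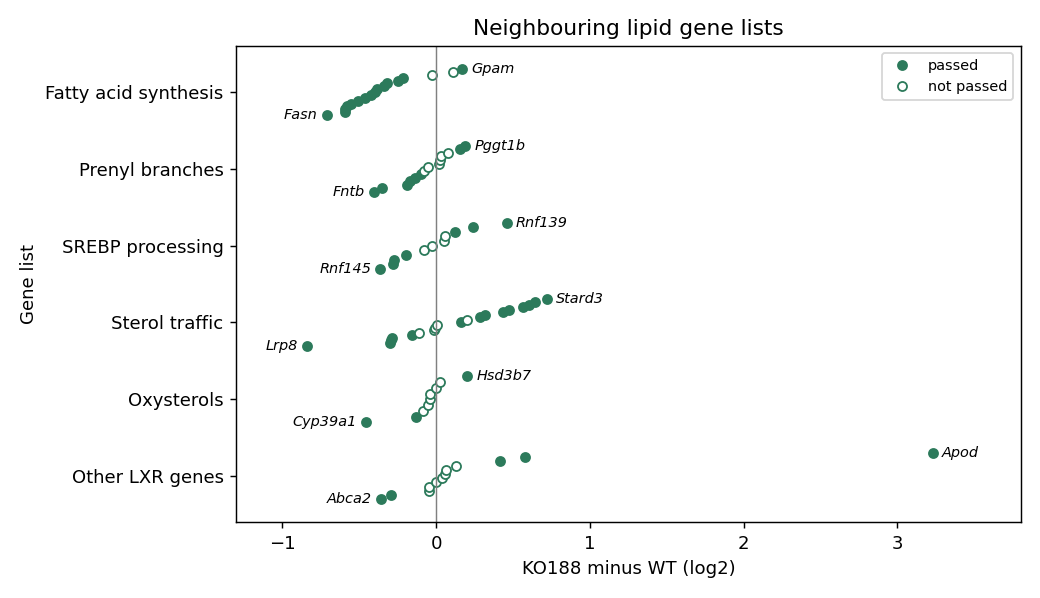
Change of each measured gene of 6 neighbouring lists, KO188 minus WT (log2); each point is 1 gene, filled where it passed, and the lowest and highest gene of each list are named. Fatty acid synthesis lies almost wholly left of 0, sterol traffic lies on both sides, and Apod stands alone at 3.23.

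Of 9 genes that make, break down or sense oxysterols 2 were called lower and 1 higher (median -0.04), a share near that of all tested genes. Cyp39a1, which acts on an oxysterol on the way to bile acids, fell by 0.45. The calls of Osbpl6 (-0.13) and Hsd3b7 (0.20) were not stable: Osbpl6 missed the threshold with any of 5 arrays left out and Hsd3b7 did so with any of 5 arrays left out, with median centring (adjusted p = 0.072) and with quantile normalization (adjusted p = 0.069). Hsd3b7 has tied values and drops out where such genes are left out. Cyp27a1, which makes 27-hydroxycholesterol, and Gpr183, the receptor for a product of 25-hydroxycholesterol, lay below the receptor guide. Other genes linked to LXR rose in 3 of 12 and fell in 2, with a median of 0.05. Apod, which encodes a lipid-binding apolipoprotein, read 11.07, 10.99 and 10.99 in KO188, against 7.58, 7.70 and 8.09 in WT, a 9.38-fold rise (change 3.23, SE 0.126, adjusted p = 8.1e-06). Pltp, the phospholipid transfer protein gene, rose by 0.41, but Lpcat3, a phospholipid-remodelling enzyme gene that LXR is known to induce, fell by 0.29. The genes of this list did not move in 1 direction.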

How the data were processed

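Messenger RNA of 3 KO188 and 3 WT samples was read on 1 Affymetrix array each. The authors deposited log2 values for 35556 probe sets. Affymetrix Expression Console, Partek and RMA are named, without version or role, per the submitters' processing notes, and the genome build was not given in the sources used here. RMA values of dim genes are compressed, so their changes are understated. Probe sets were named through GEO's platform annotation: 21789 have 1 symbol, 1621 have several and were left unnamed, and 12146 are not listed. The probe set with the highest mean over 6 arrays stood for a gene, which gave 19938 genes with no filter. Probes differ between genes, so levels of different genes are not comparable amounts, and differences between paired genes were compared only between groups.

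Groups came from the sample titles. The linear model of limma 3.58.1 (R 4.3.3, functions lmFit and eBayes) held group alone, and p-values were adjusted by Benjamini-Hochberg across the 19938 genes, with 0.05 as threshold. Differences between 2 genes were compared with two-sided exact permutation tests. The pair of LXR receptor genes could not be compared, since Nr1h2 was not measured. The fit was tested on simulated data with 50 genes shifted at each of several sizes. It found 12% of shifts of 0.15, 56% of 0.3, 86% of 0.6 and 100% of 1.2, and 7 of its 134 calls were false. A small change that did not pass may thus have been missed. Arrays with the same replicate number showed no shared shift: their deviations from the group means correlated at -0.03 to 0.02. This cannot tell whether the samples were prepared in pairs. The members and lists were chosen with earlier results of these data known, so no adjustment over a list alone and no set test is given. All 33 listed genes are accounted for, and of each neighbouring list the genes with the 3 lowest p among those that passed are named. Gpam, Cyp27a1, Gpr183 and the cell type markers named were chosen after their values were seen. So were the search with 1 changed letter and the fit without tied values. Motifs were found with Python 3.11.15 and figures drawn with matplotlib 3.10.9.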

Additional observations from a re-analysis of the deposited data

How the results depend on the processing

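In 14 alternative fits, the 16 synthesis calls, the 3 lower calls of the SREBP control arm and the rises of Abca1, Mylip and Ch25h kept their direction and stayed past the threshold. The synthesis median was -0.74 with each array centred on its median and -0.66 with quantile normalization. The SREBP control arm had 5 lower calls with median centring, with genes below the 50th percentile left out and with a trended, robust variance model; its median was -0.40 with median centring and -0.58 without tied genes. The LXR arm had 1 lower call, Apoe, with median centring, quantile normalization or dim genes left out; its median was 0.29, 0.28 and 0.69 under these. With 1 array left out, the medians ran from -0.69 to -0.67 for synthesis, -0.36 to -0.33 for SREBP control and 0.31 to 0.37 for LXR, and 3 to 4 genes of the last 2 arms were called. Median centring moved KO188 by 0.04 relative to WT and gave 4505 lower and 2007 higher calls over all genes, so 30.8% of calls were higher, in place of 44.5%. With the replicate number as a replicate block, 2748 genes were lower and 2271 higher, the synthesis arm kept 16 calls, the other arms 3 each, and the calls of the 30 genes did not change. The causes were not tested.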
